A study of Homo sapiens with 2 samples.

Results

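The genes that build the lysosome, acidify it and feed it through autophagy were followed in HN6 cells, an established line from a human squamous carcinoma of the tongue, with and without an overexpressed zinc finger gene. Members were chosen by symbol and not by a threshold on their fold, although earlier results of these data were known when the symbols were chosen. The symbols covered the V0 and V1 subunits of the vacuolar proton pump (V-ATPase) and its accessory proteins, the cathepsins, the LAMP membrane proteins, the ATG, ULK, WIPI and ATG8-family autophagy genes, the cargo receptors SQSTM1 and NBR1, and the transcription factors TFEB, TFE3 and MITF. A listed gene also had to reach 20 counts in both libraries together. Of 25534 listed genes 73 matched by symbol, and 67 of them passed the count minimum, beside 16669 genes of the whole table. The 6 that did not pass were ATG9B, ATP6V0E2, ATP6V1G2, CTSE, CTSW and MAP1LC3A, with 0 to 13 counts in a library.

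The study asked which transcripts respond to ZNF582 in squamous carcinoma of the head and neck. It had 1 control library from cells labelled wild type and 1 library from cells given a ZNF582 overexpression plasmid, with polybrene as the transfection agent. Both groups were the same line grown in the same medium, and the use of an empty vector in the control is not stated in the labels. With 1 library per group no difference has a replicate check, no p-value was computed, and every interval is a 95% interval that covers counting error only. In bulk RNA, fewer expressing cells and less RNA per cell cannot be told apart.

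Lysosomes are acidic compartments in which hydrolases, among them the cathepsins, digest material delivered by endocytosis and autophagy. The V-ATPase pumps protons into them: its cytosolic V1 sector splits ATP and drives the membrane-bound V0 sector, through which the protons pass. In autophagy the ULK kinase complex starts a membrane sheet, the phagophore, which grows with lipid from ATG9 vesicles and ATG2 transfer proteins. Ubiquitin-like ATG8 proteins are then coupled to its lipid by a conjugation system, and cargo receptors tie cargo to the coupled ATG8. TFEB, TFE3 and MITF are related transcription factors that bind a palindrome called the CLEAR element, with an E-box at its core, in promoters of many lysosomal and autophagy genes. Squamous carcinoma cells use autophagy and secreted cathepsins in nutrient stress and in invasion.

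The control library held 14765244 counts and the ZNF582 library 17792172. ZNF582 itself had 14 counts in control cells and 277387 with ZNF582, as the labels imply. All 12 genes chosen as epithelial or squamous markers were listed, although KRT14 had only 7 and 19 counts and KRT6A 24 and 57. DSG3 had 1562 and 2343 counts. The FPKM (fragments per unit of transcript length and library size) of the 12 summed to 1829 and 2510. EGFR alone made up 1328 and 1790 of these sums, and KRT8, KRT18 and PKP1 were lower in FPKM in the ZNF582 library. Of 24 markers of leukocytes, fibroblasts, endothelium, melanocytes and osteoclasts 11 were listed, and these summed to 4.14 and 3.60 FPKM. Most members were well measured: the median sum of counts of a member was 1390, against 557 over all genes examined, and 39 members had at least 1000. All 67 are protein-coding genes, on 20 chromosomes, and 24 of them (35.8%) have exonic overlap with another listed gene, against 39.5% of all genes examined.

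As a whole the 67 genes differed little between the libraries, while single genes of the pump, the cathepsins and the autophagy machinery passed the rule for a difference. They took 0.431% of counts in control cells and 0.419% with ZNF582. Their median log2 fold was 0.01, with quartiles at -0.25 and 0.31, against a median of -0.01 and quartiles of -0.33 and 0.31 over all genes examined. A gene counted as higher or lower once its fold, after scaling to library size with TMM factors from all genes, reached 2 with an interval that excluded 1. By that rule 3 members were higher, ATP6V0D2, ATP6V1C2 and WIPI1, and 2 were lower, CTSO and ATG16L2. These 5 are 7.46% of members, against 9.27% of all genes examined (4.25% higher and 5.02% lower), so the share lies near the background. ATP6V0D2 reached the count minimum through the ZNF582 library alone, and ATP6V1C2 with 52 of its 60 counts from there. Without ATP6V0D2, 2 members were higher and 2 lower, or 6.06% of 66. The same 5 members were the ones called in the authors' deposited table, which called 6.71% of all genes examined.

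At 1.5-fold, 6 members were higher, with SQSTM1, MAP1LC3B and MAP1LC3B2 added, against 9.9% of all genes examined. At this size 5 were lower, with ATG5, CTSL and TFEB added, against 10.9% of all genes. The calls of SQSTM1 and MAP1LC3B were lost without TMM factors, and that of CTSL with DESeq2 size factors. Together these 11 make 16.4% of members, beside 20.8% of all genes, and the other 56 lay between. Counting error alone was exceeded more often, since 22 members had an interval wholly above 1 (27.6% of all genes did) and 21 wholly below (26.2%). Of the 39 members with at least 1000 counts 0 passed 2-fold, where 3.39% of all genes that deep did. At 1.5-fold 2 of these 39 were higher (SQSTM1 and MAP1LC3B) and 2 lower (ATG5 and CTSL), or 10.3%, against 14.04% of all genes that deep.

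**Figure D1:**
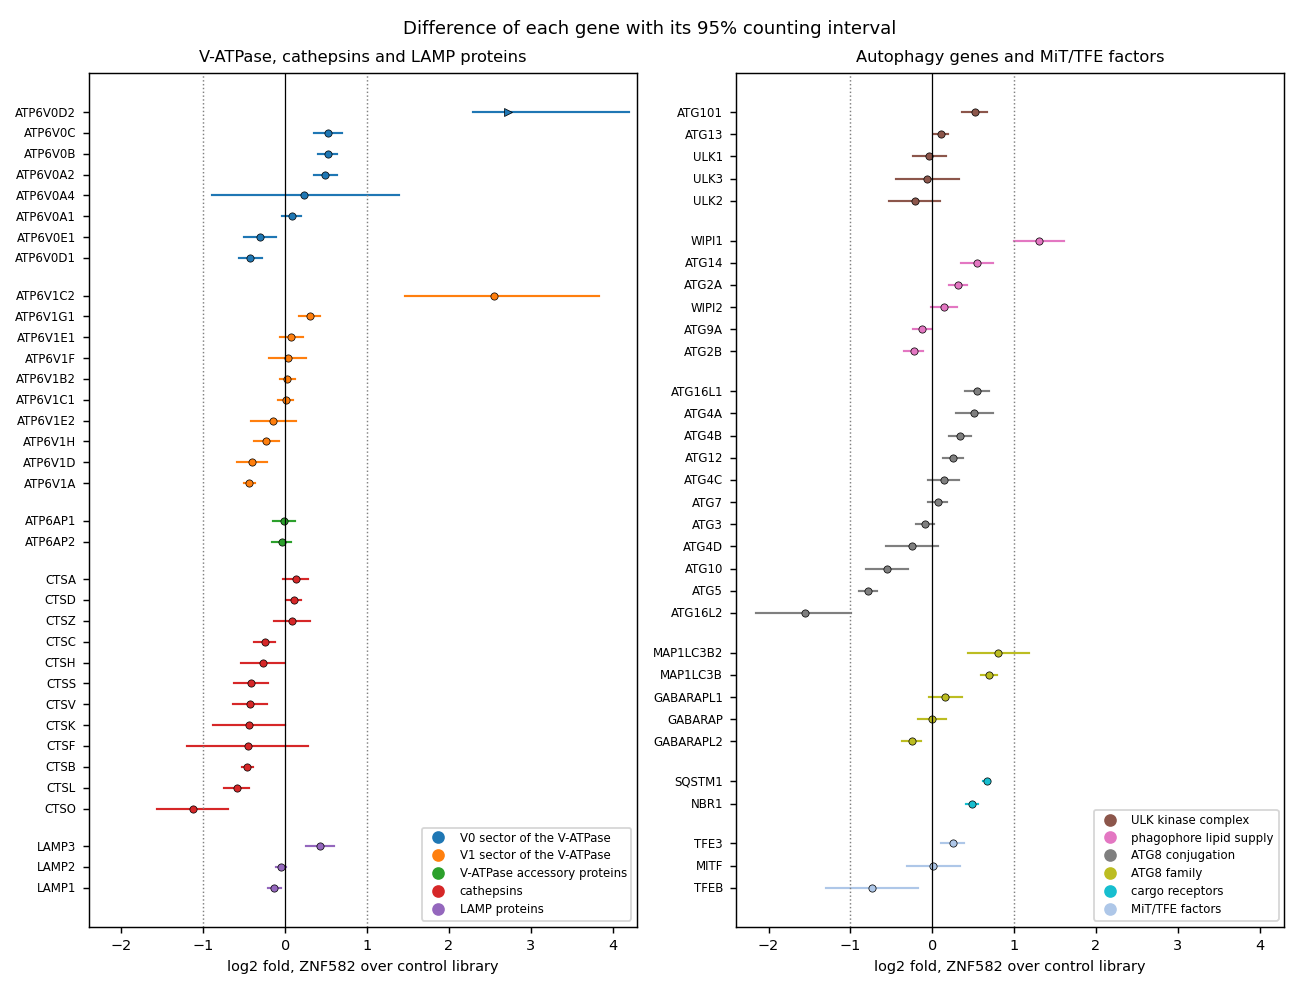
Log2 fold of the ZNF582 library over control (x axis, TMM-scaled counts) for the 67 members, grouped by role, with bars for the 95% counting interval and dotted lines at 2-fold. Most points lie within 1.5-fold of no difference. ATP6V0D2, ATP6V1C2 and WIPI1 lie above 2-fold and CTSO and ATG16L2 below. The triangle of ATP6V0D2 is its fold against a floor of 3 counts in the control library, and its bar has no upper end.

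In the V0 sector 1 of 8 members (12.5%, against 9.27% of all genes examined) was called, ATP6V0D2, and the median log2 fold was 0.36. ATP6V0D2, a tissue-restricted form of the d subunit best known from osteoclasts and kidney, had 0 counts in control cells and 22 with ZNF582. The gene lies on the plus strand of chromosome 8 from 85987323 to 86154228 in GRCh38. In FPKM it was listed at 0 in control and at 0.364 with ZNF582. Against a floor of 3 counts in the control library it was 6.58-fold higher, and the lower end of its interval makes it at least 4.91-fold higher. It has no exonic overlap with a listed gene, but 20.1% of the 31-base stretches of its transcripts also occur in transcripts of other genes. Its ubiquitous counterpart ATP6V0D1 had 907 and 753 counts, or 4.2 and 2.89 FPKM, a log2 fold of -0.42 (interval -0.57 to -0.28). Even in the ZNF582 library, ATP6V0D1 exceeded ATP6V0D2 by 7.95 times in FPKM. Of the osteoclast markers 1 of 4 was listed, at 0.0832 and 0.0828 FPKM, and 3 were not.

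The other V0 subunits split by subunit. ATP6V0C, the proton-carrying c subunit and the most abundant of the sector in FPKM, had 476 and 761 counts, or 13.7 and 18.2 FPKM, a log2 fold of 0.52 (interval 0.35 to 0.69). Its level is uncertain, since 68.3% of the 31-base stretches of its transcripts occur in other genes, 55.7% in AC093525.2, an overlapping gene on the same strand with 183 and 167 counts. ATP6V0B, a related proteolipid, had more counts, 972 and 1550, but lower FPKM, 6.74 and 8.92, and the same log2 fold of 0.52. Of the a subunits, which set where in the cell the pump resides, ATP6V0A2 went from 693 to 1084 counts, a log2 fold of 0.49. ATP6V0A1 had 1084 and 1275 counts, a log2 fold of 0.08 that turned negative without TMM factors. In FPKM the order of the pair switched, from 1.11 times as much ATP6V0A1 as ATP6V0A2 to 0.837 times. In counts ATP6V0A1 lay above ATP6V0A2 in both libraries. ATP6V0A4, the kidney form, had only 13 and 17 counts, and its interval includes no difference. ATP6V0E1 had 475 and 427 counts, a log2 fold of -0.31. None of these 7 reached 1.5-fold, and without ATP6V0D2 the median of the sector was 0.23.

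Of the 10 V1 members 1 was called, ATP6V1C2, or 10%, against 9.27% of all genes examined. The median log2 fold was 0.02, which became -0.10 without TMM factors. ATP6V1C2, a tissue-restricted form of the C subunit that joins the sectors, had 8 counts in control cells and 52 with ZNF582, or 0.127 and 0.685 FPKM. It was 5.83-fold higher (2.75 to 14.2). The gene lies on the plus strand of chromosome 2 from 10721649 to 10785110. Its exons overlap those of PDIA6, a protein disulfide isomerase gene on the opposite strand, which had 12648 and 20218 counts and was 1.43-fold higher. Of the 31-base stretches of ATP6V1C2 transcripts 27.9% also occur in transcripts of PDIA6, and whether reads were counted by strand is not given, so its count is uncertain. The common form ATP6V1C1 had 1877 and 2104 counts, a log2 fold of 0.01 (interval -0.08 to 0.10). ATP6V1C1 exceeded ATP6V1C2 by 120 times in FPKM in the control library and by 20.7 times in the ZNF582 library.

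The catalytic subunit ATP6V1A was the lowest of the sector by log2 fold and the most abundant in FPKM in the control library. It had 4276 counts in control cells and 3516 with ZNF582, or 46.2 and 31.5 FPKM. The log2 fold was -0.44 (interval -0.50 to -0.37), which is 1.36-fold lower and under both thresholds. ATP6V1B2, which alternates with the A subunit in the same ring, had 1801 and 2044 counts, a log2 fold of 0.03 (interval -0.07 to 0.12). The ratio of the pair in FPKM was 4.06 in control and 2.94 in the ZNF582 library. ATP6V1G1, a stalk subunit, had 40.1 and 45.6 FPKM and a log2 fold of 0.30. It was the highest V1 member in FPKM in the ZNF582 library. The remaining V1 members, E1, E2, F, D and H, lay between -0.40 (ATP6V1D) and 0.07 (ATP6V1E1). The accessory proteins ATP6AP1 and ATP6AP2, the latter also known as the prorenin receptor, had log2 folds of -0.01 and -0.04, and ATP6AP2 had 23.1 and 20.8 FPKM; both signs turned with DESeq2 size factors.

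The cathepsins lay mostly below no difference, with 2 of 12 (16.7%) past 1.5-fold, against 20.8% of all genes examined. Their median log2 fold was -0.42, the lowest of any role, and 9 of 12 were below 0. An interval wholly below 1 was found in 8 (66.7%). It was found in 26.2% of all genes and in 30.9959% of those with at least 1000 counts. Summed, they had 10150 counts in control cells and 9292 with ZNF582, a log2 fold of -0.28 (interval -0.32 to -0.24). The 10 cysteine cathepsins held all 8 of those intervals, with a median of -0.44 and a sum that went from 7900 to 6585 counts. The aspartic protease CTSD had 1613 and 1930 counts, and the serine carboxypeptidase CTSA 637 and 777. Their log2 folds were 0.10 and 0.13, and that of CTSD turned negative without TMM factors. Of the 31-base stretches of CTSD transcripts 47.8% occur in other genes, and of those of CTSA transcripts 28.2%.

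CTSO, a little-studied cysteine cathepsin, had 137 counts in control cells and 70 with ZNF582, or 3.14 and 1.33 FPKM. It was 2.18-fold lower (1.62 to 2.95) and has no exonic overlap with another listed gene. CTSO lies at 155924118 to 155953917 of chromosome 4, minus strand. CTSL, a broad endopeptidase of the lysosome that tumour cells also secrete, had 840 and 620 counts, or 12.5 and 7.69 FPKM, and was 1.51-fold lower (1.36 to 1.68), just past that threshold, and its log2 fold of -0.55 with DESeq2 size factors no longer passed it. CTSV, its closest relative, had 423 and 351 counts, or 5.43 and 3.74 FPKM, a log2 fold of -0.43. The relatives thus lay on the same side, and their FPKM ratio was 2.31 in control and 2.05 in the ZNF582 library; 4.63% of the 31-base stretches of CTSL transcripts occur in another gene.

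CTSB, another cysteine protease often secreted by carcinoma cells, had more counts than any other cathepsin, 4393 and 3556, or 16.3 and 10.9 FPKM. Its log2 fold of -0.46 (interval -0.53 to -0.40) fell short of 1.5-fold but lay far outside counting error. CTSD had the highest FPKM of the cathepsins, at 20.3 and 20.2, although it had fewer counts than CTSB. The ratio of CTSB to CTSD in FPKM went from 0.802 to 0.543. CTSS and CTSK, elastin- and collagen-cleaving proteases whose genes are 30251 bases apart on chromosome 1, had log2 folds of -0.42 and -0.45. CTSC, which activates serine proteases of granules, had -0.25, and CTSH, an aminopeptidase, -0.28. CTSF, with only 37 and 30 counts, had -0.46 with an interval that includes no difference. CTSZ, a carboxypeptidase, was the only cysteine cathepsin above 0, at 0.08, and turned negative without TMM factors.

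The LAMP proteins coat the inner face of the lysosomal membrane, and 0 of 3 passed 1.5-fold. LAMP2, which also serves in chaperone-mediated autophagy, had 4290 and 4605 counts, or 46.4 and 41.3 FPKM, the highest FPKM of any member in the control library. Its log2 fold was -0.05, and its interval includes no difference. LAMP1 had 2611 and 2652 counts, or 22.7 and 19.1 FPKM, a log2 fold of -0.13 (interval -0.21 to -0.06). LAMP3, an inducible form known from dendritic cells and tumours, had 472 and 708 counts, or 5.54 and 6.90 FPKM, a log2 fold of 0.43 (interval 0.26 to 0.60). Without TMM factors LAMP1 lay at -0.25.

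**Figure D2:**
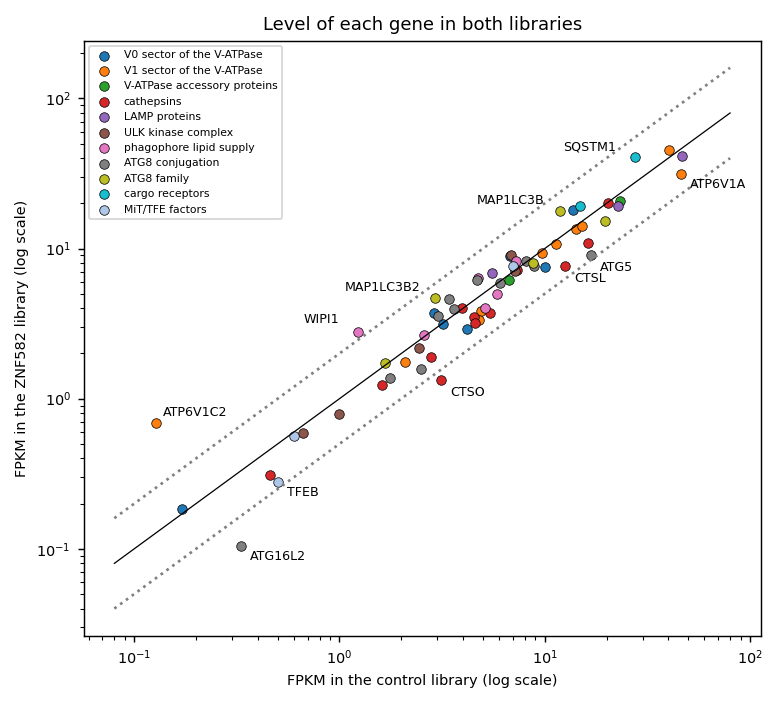
Deposited FPKM of each member in the control library (x axis, log scale) against the ZNF582 library (y axis, log scale), without TMM factors, with dotted lines at 2-fold; ATP6V0D2 is absent because it is listed at 0 in control. LAMP2, ATP6V1A and ATP6V1G1 lead in control at 46.4, 46.2 and 40.1 FPKM, and the genes past 2-fold lie at 3.14 FPKM or less in control.

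The autophagy genes, from the ULK complex to the cargo receptors, had a median log2 fold of 0.14 over 29 members, where 13 intervals (44.8%) lay above 1 and 6 (20.7%) below. The 35 lysosomal members, that is V-ATPase, cathepsins and LAMP proteins, had a median of -0.04, with 8 intervals (22.9%) above and 14 (40%) below. Over all genes examined 27.6% lay above and 26.2% below. Among all genes with at least 1000 counts 43.4% lay above and 30.9959% below. The autophagy share above 1 lay near that of genes with at least 1000 counts, but not all autophagy members have so many. The part of depth in these shares was not tested. Exonic overlap with another listed gene was also unequal, in 51.7% of the autophagy members and 25.7% of the lysosomal ones. Of the 24 overlapping members 11 had an interval above 1 and 4 below, and of the other 43 members 11 above and 17 below. The part of overlap in the contrast was not tested. No test of this contrast was made, because members are not replicates. In the ULK complex 0 of 5 members passed 1.5-fold. ATG101, a scaffold that stabilises ATG13, was the highest, with 536 and 854 counts, or 6.88 and 9.10 FPKM, a log2 fold of 0.52 (interval 0.36 to 0.67). ATG13, the regulatory subunit and the most abundant of the complex in the control library, had 2027 and 2425 counts, or 7.15 and 7.10 FPKM, a log2 fold of 0.10 that turned negative without TMM factors. ULK1, the initiating kinase, had 401 and 436 counts and a log2 fold of -0.04 that turned positive with DESeq2 size factors. The kinases ULK2, at 172 and 165 counts, and ULK3 had log2 folds of -0.22 and -0.06, with intervals that include no difference.

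WIPI1 was the one called gene among 6 that supply or recognise phagophore lipid (16.7%, against 9.27% of all genes examined). It encodes a propeller protein that binds phosphatidylinositol 3-phosphate on the young phagophore. WIPI1 had 125 counts in control cells and 343 with ZNF582, or 1.23 and 2.80 FPKM, and was 2.46-fold higher (2 to 3.05). The gene lies on chromosome 17, minus strand, from 68420948 to 68457513. Its relative WIPI2, the form that recruits ATG16L1, had 593 and 729 counts, or 2.59 and 2.65 FPKM, a log2 fold of 0.14. WIPI2 exceeded WIPI1 by 2.11 times in FPKM in control and lay at 0.945 times WIPI1 in the ZNF582 library. In counts WIPI2 lay above WIPI1 in both. Exons of WIPI1 overlap those of AC007780.1, with 71 and 40 counts, and of ARSG, with 11 and 19. In FPKM AC007780.1 lay above WIPI1 in control, at 2.10, and below it in the ZNF582 library, at 0.980. Of the 31-base stretches of WIPI1 transcripts 30.9% also occur in other genes, so its count is uncertain as well. ATG14, which steers the lipid kinase complex to the phagophore, had 357 and 580 counts and a log2 fold of 0.54 (interval 0.35 to 0.74). ATG2A, a lipid transfer protein and the highest of the group in FPKM, had 7.22 and 8.31 FPKM and a log2 fold of 0.32. Its paralogue ATG2B had 1194 and 1136 counts and a log2 fold of -0.23, and the lipid scramblase ATG9A -0.13. The intervals of the ATG2 paralogues do not overlap. For ATG9A 35.5% of the 31-base stretches of its transcripts occur in other genes.

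The promoter window of WIPI1 is shown because WIPI1 has the most counts of the genes higher past 2-fold. The window lies at chr17:68457447-68457746 on the minus strand of GRCh38.p14 (RefSeq) and spans the start of transcription. Capitals mark each CCGCCC or GGGCGG, the GC box on either strand.
WIPI1: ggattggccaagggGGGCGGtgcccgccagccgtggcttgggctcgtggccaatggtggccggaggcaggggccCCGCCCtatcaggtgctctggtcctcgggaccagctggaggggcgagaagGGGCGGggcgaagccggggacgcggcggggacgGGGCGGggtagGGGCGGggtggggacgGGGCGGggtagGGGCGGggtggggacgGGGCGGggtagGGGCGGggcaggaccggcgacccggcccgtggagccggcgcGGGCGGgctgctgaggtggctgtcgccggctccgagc
It holds 10 GC boxes, and 0.35% of the 15709 windows of examined genes hold as many, with WIPI1 the only member among them. It has 0 E-boxes (CACGTG), and a match or its absence is a description of these letters, not of binding.

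The enzymes that couple ATG8 to lipid held both the lowest gene of all members and one of the best measured lower ones. Of the 11, 1 (9.09%) was lower past 2-fold and 2 (18.2%) were lower past 1.5-fold, and the median log2 fold was 0.07. Of all genes examined 9.27% and 20.8% passed these sizes in either direction. ATG16L2, a paralogue of ATG16L1 with little role in canonical autophagy, had 95 counts in control cells and 36 with ZNF582, or 0.332 and 0.104 FPKM. It was 2.94-fold lower (1.98 to 4.45). The gene lies on chromosome 11, plus strand, from 72814308 to 72843674. Its exons overlap those of FCHSD2, a membrane-bending protein gene with 393 and 279 counts and a log2 fold of -0.65, so its count is uncertain. ATG16L1, the scaffold that places the conjugation enzymes on the membrane, had 662 and 1077 counts, or 3.41 and 4.60 FPKM. Its log2 fold of 0.55 (interval 0.41 to 0.69) was the highest of the group. The paralogues lay on opposite sides, and their FPKM ratio went from 10.3 in control to 44.1.

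ATG5, which is joined to ATG12 and binds ATG16L1, had 1714 counts in control cells and 1112 with ZNF582, or 16.8 and 9.06 FPKM. It was 1.72-fold lower (1.59 to 1.85), and it has no exonic overlap with another listed gene. Of all members with at least 1000 counts it had the lowest log2 fold, yet it remained the highest of the conjugation group in FPKM. Its partner ATG12 had 925 and 1226 counts, a log2 fold of 0.25 (interval 0.13 to 0.38). ATG5 exceeded ATG12 by 4.68 times in FPKM in control and by 2.29 times in the ZNF582 library, and it exceeded ATG16L1 by 4.94 and 1.97 times. Of this one complex, ATG5 lay below no difference and ATG12 and ATG16L1 above it, each with an interval that excludes 1.

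ATG10, the enzyme that joins ATG12 to ATG5, had 293 and 223 counts and a log2 fold of -0.55 (interval -0.81 to -0.29), short of 1.5-fold, although it passed at -0.66 without TMM factors. Its exons overlap those of RPS23, a ribosomal protein gene on the opposite strand with 1971 and 2210 counts, so its count is uncertain. ATG7 and ATG3, which activate and transfer ATG8, had log2 folds of 0.07 and -0.09, and ATG7 turned negative without TMM factors. The ATG4 proteases, which trim ATG8 before coupling, ranged from -0.25 for ATG4D, on 176 and 165 counts, to 0.51 for ATG4A, on 267 and 424. ATG4B, the main protease for LC3, had 770 and 1089 counts and a log2 fold of 0.34.

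Of the ATG8 family the LC3B genes were higher past 1.5-fold with TMM scaling, and none of the GABARAP genes passed. MAP1LC3B, the usual marker of autophagosomes, had 1298 counts in control cells and 2337 with ZNF582, or 11.8 and 17.7 FPKM. It was 1.62-fold higher (1.51 to 1.73), but its log2 fold was 0.58 without TMM factors and 0.54 and 0.58 from FPKM with pseudocounts of 1 and 0.1, each just under 1.5-fold. With the pseudocount of 1, MAP1LC3B2 at 0.54 missed it too. MAP1LC3B2, a near-identical gene on another chromosome, had 94 and 183 counts, or 2.91 and 4.70 FPKM, and was 1.75-fold higher (1.35 to 2.26). The reading frames of both copies are 378 bases long and 99.5% identical, and in the annotated transcripts they differ by C30G and A338G, with MAP1LC3B first and positions counted from 1 at the start of the frame. The stretches around each difference are shown because they are all that separates the coding parts; the differing base is in capitals. The first pair holds C30G and the second pair A338G.
MAP1LC3B: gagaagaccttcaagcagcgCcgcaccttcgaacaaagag
MAP1LC3B2: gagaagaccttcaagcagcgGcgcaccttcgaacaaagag
MAP1LC3B: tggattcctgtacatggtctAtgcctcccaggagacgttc
MAP1LC3B2: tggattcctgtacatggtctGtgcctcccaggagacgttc
Of the 31-base stretches in MAP1LC3B2 transcripts 18.2% occur in MAP1LC3B, so reads of the coding part may have been divided between them and the separate values are uncertain. Their FPKM ratio was 4.07 in control and 3.76 in the ZNF582 library. MAP1LC3B also has exonic overlap with FBXO31, an F-box gene with 673 and 930 counts.

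GABARAPL2, the highest ATG8 gene in FPKM in control, had 1260 and 1178 counts, or 19.7 and 15.3 FPKM, a log2 fold of -0.25 (interval -0.37 to -0.14). GABARAPL1 had 386 and 481 counts and a log2 fold of 0.16, and GABARAP 535 and 594 counts and -0.01; both intervals include no difference, and GABARAP turned positive with DESeq2 size factors. Of the 31-base stretches of GABARAP transcripts 52.3% occur in other genes. MAP1LC3B lay at 0.601 times GABARAPL2 in FPKM in control and at 1.16 times in the ZNF582 library. In counts MAP1LC3B led in both, at 1298 against 1260 in control and 2337 against 1178 with ZNF582.

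Both cargo receptors lay above no difference, and SQSTM1 passed 1.5-fold with TMM scaling. SQSTM1, also called p62, binds ubiquitin and LC3 and is itself degraded by autophagy. It had 5710 counts in control cells and 10073 with ZNF582, the most of any member, or 27.7 and 40.5 FPKM. It was 1.58-fold higher (1.53 to 1.64), but its log2 fold was 0.55 without TMM factors and 0.53 and 0.55 from FPKM with pseudocounts of 1 and 0.1, each under 1.5-fold. Exons of SQSTM1 overlap those of MGAT4B, with 1157 and 829 counts, and MRNIP, with 176 and 226, whose counts are few beside it. Of the 31-base stretches of SQSTM1 transcripts 23.6% occur in other genes, 19.7% in MRNIP, so its count is uncertain as well. NBR1, a larger receptor of similar build, had 2200 and 3429 counts, or 14.9 and 19.3 FPKM, a log2 fold of 0.48 (interval 0.41 to 0.56). The NBR1 interval ends below that of SQSTM1, and the ratio of SQSTM1 to NBR1 in FPKM was 1.86 in control and 2.10 in the ZNF582 library.

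**Figure D3:**
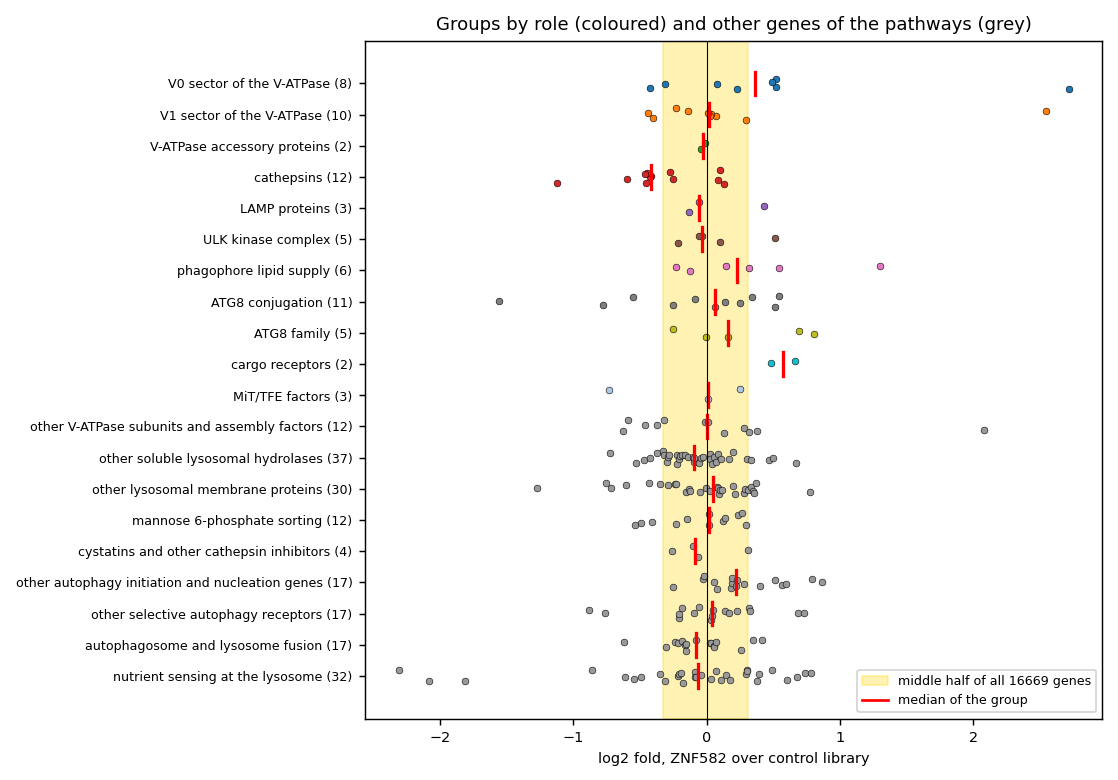
Log2 fold (x axis, TMM-scaled counts) of the members by role and of genes of the same pathways that are not members, 1 point per gene, with a red bar at each median and a band between the quartiles of all genes examined, -0.33 and 0.31. The cathepsin median lies at -0.42 and the cargo receptor median at 0.57, and most other medians lie near 0.

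Of the MiT/TFE transcription factors, 1 of 3 passed 1.5-fold. TFEB had 70 counts in control cells and 47 with ZNF582, or 0.503 and 0.281 FPKM, and was 1.66-fold lower (1.13 to 2.46), or -0.23 on the log2 scale from FPKM with a pseudocount of 1. TFE3 had 730 and 966 counts, or 6.97 and 7.65 FPKM, a log2 fold of 0.25 (interval 0.11 to 0.39). MITF, the melanocyte factor, had 154 and 173 counts, or 0.602 and 0.561 FPKM, a log2 fold of 0.01 that turned negative without TMM factors. TFE3 was the main transcript of the family in both libraries, at 13.8 times TFEB in FPKM in control and 27.3 times in the ZNF582 library. These are transcript levels, and the factors are known to be controlled largely by phosphorylation and entry into the nucleus, which RNA does not show.

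RefSeq promoter windows of GRCh38.p14 were found for 53 members, with 65 windows, each from upstream of a start of transcription to just inside the transcript. The E-box CACGTG occurred in 10 windows, or 15.4%, against 9.09% of 15709 windows of examined genes. The palindrome TCACGTGA, a core of the CLEAR element that contains the E-box, occurred in 5 windows, or 7.69%, against 1.59%. The bases on either side of this core were not required to match. Its 5 genes were ATG3, ATP6V0D1, ATP6V1G1, CTSA and LAMP1. The motif stretches are shown because MiT/TFE factors are known to recognise elements with this core, with TCACGTGA in capitals. In order they lie at chr3:112561935-112561974 (minus strand), chr16:67481194-67481233 (minus), chr9:114587694-114587733 (plus), chr20:45891293-45891332 (plus), chr13:113297194-113297233 (plus) and chr13:113297221-113297260 (plus).
ATG3: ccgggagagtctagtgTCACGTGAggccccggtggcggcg
ATP6V0D1: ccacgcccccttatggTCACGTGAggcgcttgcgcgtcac
ATP6V1G1: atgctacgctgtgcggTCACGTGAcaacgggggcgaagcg
CTSA: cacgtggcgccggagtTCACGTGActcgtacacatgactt
LAMP1: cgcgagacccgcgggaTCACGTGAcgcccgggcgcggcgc
LAMP1: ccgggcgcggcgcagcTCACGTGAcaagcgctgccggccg
None of these 5 genes passed 1.5-fold, where 20.8% of all genes examined did, and 5 genes are too few to set against that share. Their log2 folds ran from -0.42 for ATP6V0D1 to 0.30 for ATP6V1G1, with a median of -0.09. The 5 members with an E-box but no CLEAR core were ATG14, ATP6V0B, CTSD, CTSF and ULK3, with a median of 0.10 and a range from -0.46 to 0.54. The 43 with no E-box in a window had a median of 0.08 and ran from -1.56 to 2.54. The range of the last group holds those of the others, but 43 genes tend to span more than 5, so the ranges decide nothing.

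LAMP1 carries the densest set of E-boxes, and its window, chr13:113296989-113297288 on the plus strand, is shown with each CACGTG in capitals.
LAMP1: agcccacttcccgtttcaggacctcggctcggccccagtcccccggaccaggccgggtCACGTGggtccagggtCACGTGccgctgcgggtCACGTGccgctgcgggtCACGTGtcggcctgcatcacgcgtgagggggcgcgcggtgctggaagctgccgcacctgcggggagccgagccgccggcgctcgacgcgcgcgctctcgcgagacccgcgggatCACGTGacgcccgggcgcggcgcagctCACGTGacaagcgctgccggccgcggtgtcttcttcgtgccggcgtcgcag
It holds 6 E-boxes, and only 1 of the 15709 windows examined, its own, held as many. Beside this window stands the near-flat LAMP1 value of -0.13. Of other motifs searched on both strands, the amino acid response motif TGATGCAA occurred in 0 of 65 windows, against 0.535% of windows of examined genes. The cAMP response motif TGACGTCA occurred in 2, those of GABARAPL1 and MITF, or 3.08% against 2.71%. The GC box CCGCCC occurred in 48, or 73.8% against 64.8%.

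**Figure D4:**
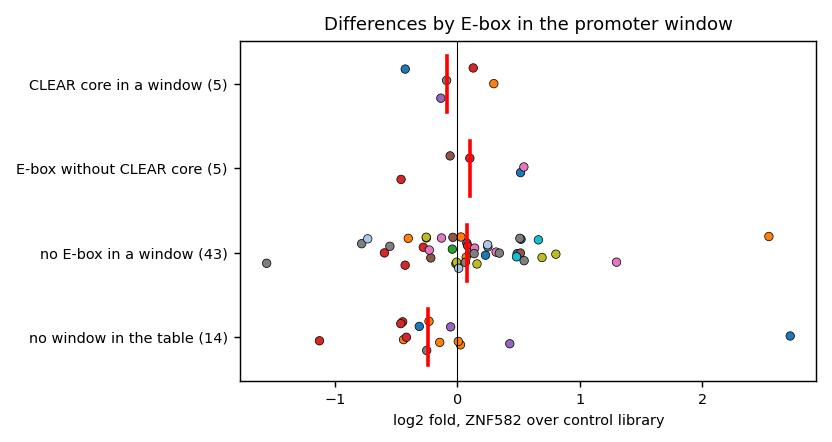
Log2 fold (x axis, TMM-scaled counts) of members grouped by what their promoter window holds, 1 point per gene coloured by role, with a red bar at each median. The medians lie at -0.09 with the CLEAR core, 0.10 with another E-box and 0.08 with none, and ATP6V1C2, WIPI1 and ATG16L2 have no E-box in a window.

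Genes of the same pathways outside the member list were read from lists by function, 178 measured genes in all, with a median log2 fold of 0.02. Of these 2.81% passed 2-fold, against 9.27% of all genes examined and 3.39% of those with at least 1000 counts. At 1.5-fold 15.2% passed, against 20.8% of all genes and 14.04% of those with at least 1000 counts. The part of depth in these shares was not tested. Among 12 other V-ATPase subunits and assembly factors 1 was higher and 0 were lower. This was TMEM199, an assembly factor of the V0 sector, with 146 counts in control cells and 689 with ZNF582, a log2 fold of 2.08. Exonic overlap with AC002094.1, at 17 and 10 counts, is small beside that difference. At 1.5-fold DMXL2 and WDR7, partners in a complex that reassembles the pump, were the 2 lower ones, at -0.63 and -0.59. Of the further subunit and assembly genes TCIRG1, the a3 subunit, had -0.32.

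Among 37 other soluble lysosomal hydrolases 0 passed 2-fold, with a median log2 fold of -0.10. Intervals lay wholly below 1 in 11 (29.7%), near the 26.2% of all genes, and wholly above in 7 (18.9%), against 27.6%. SGSH, a heparan sulfate sulfatase, was the highest, with 85 and 151 counts and a log2 fold of 0.67. GLB1, the lysosomal beta-galactosidase, was the lowest, with 632 and 425 counts and a log2 fold of -0.73. Of 30 other membrane and cholesterol-handling proteins of the lysosome 1 was lower past 2-fold and 0 were higher. NPC2, which hands cholesterol out of the lysosome, had 1387 counts in control cells and 639 with ZNF582, a log2 fold of -1.27. Its overlap partner ISCA2, an iron-sulfur protein gene, had 161 and 162 counts. In the mannose 6-phosphate sorting route, which carries hydrolases to lysosomes, 0 of 12 passed 1.5-fold. That list ran from SORT1 at -0.54 to GNPTG at 0.29. The 4 measured cystatins and other cathepsin inhibitors ran from CSTA at -0.26 to CSTB at 0.31.

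The 17 other genes of autophagy initiation and nucleation lay mostly above no difference. Their median log2 fold was 0.22, 14 were above 0, and 0 passed 2-fold. An interval wholly above 1 was found in 13 (76.5%). It was found in 27.6% of all genes and in 43.4% of those with at least 1000 counts. ZFYVE1, which encodes the phagophore cradle marker DFCP1, was the highest, with 229 and 466 counts and a log2 fold of 0.87. NRBF2, a subunit of the ATG14 lipid kinase complex, had 427 and 821 counts and a log2 fold of 0.79. WDR45, a relative of WIPI1, had a log2 fold of 0.59, and these 3 passed 1.5-fold. EI24 was the lowest, at -0.25.

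Among 17 other selective autophagy receptors 2 were higher and 2 lower at 1.5-fold, or 23.5%, near the 20.8% of all genes examined. BCL2L13, a mitophagy receptor, and TAX1BP1, a ubiquitin-binding receptor, had log2 folds of 0.73 and 0.68. BNIP3, another mitophagy receptor, and RETREG1, a receptor for endoplasmic reticulum, had -0.76 and -0.88. Of 17 genes for fusion of autophagosome and lysosome, 1 was lower at 1.5-fold, TGM2 at -0.62, and VPS11 was the highest at 0.41. Of 32 nutrient-sensing genes at the lysosome 3 were lower past 2-fold and 0 were higher, a share of 9.38% beside the 9.27% of all genes. These were CASTOR1, at 49 and 11 counts, RRAGD, at 19 and 5, and DDIT4. CASTOR1 and RRAGD were named after their values were seen. Exons of CASTOR1 overlap those of AC004997.1 on the same strand, with 43 and 52 counts, so its count is uncertain. DDIT4, an inhibitor of the growth kinase mTORC1, had 3666 counts in control cells and 1164 with ZNF582, a log2 fold of -1.81. DDIT4 overlaps its antisense RNA DDIT4-AS1, which had 46 and 14 counts.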

How the data were processed

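Per the labels' protocols, total RNA of HN6 cells was sequenced in 1 control and 1 ZNF582 library. The submitters' processing notes name StringTie 1.3.0, HISAT2 2.0.4 and GRCh38. No source used here gives the counting program or strand use, so the deposited counts, whole numbers, are treated as estimated counts. The deposited FPKM values are handled as a score, because 1 broken record put a negative value in that column. They were scaled by total counts alone and are used for levels between genes. The gene lengths behind them are not given. For several members, among them GABARAP, ATP6V0B, CTSA, ULK3 and ATP6AP1, the length implied by count, library total and FPKM exceeds the span of the gene. Ranks and ratios between genes in FPKM are therefore uncertain.

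Counts were scaled with TMM factors (1.04 control, 0.962 ZNF582; edgeR 4.0.16, R 4.3.3) over 16669 genes with at least 20 counts. Folds carry the exact 95% Clopper-Pearson interval conditional on the sum of both counts. Reads carry no molecular identifiers, so these intervals and the floor describe counting error alone. A library with 0 counts was set to a floor of 3. With 1 library per group there is no test. Exonic overlap came from GENCODE 29 and sequences from RefSeq GRCh38.p14 windows or GENCODE transcripts, in Python 3.11.15. The procedure was tested on simulated data.

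Members and lists were chosen with earlier results of these data known. The genes named are members past 2-fold or 1.5-fold, the highest, the lowest and the most abundant of each role, the LC3B and CTSL/CTSV copies, the MiT/TFE factors, and from each further list those past 2-fold with at least 100 counts, or else the highest and lowest. Other genes were named after their values were seen.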

Additional observations from a re-analysis of the deposited data

How the results depend on the processing

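No paired analysis was possible because each group had 1 library, and for the same reason no replicate could be left out. Counts of members past 2-fold were 1 higher at a minimum of 100 counts (3 in the report), 0 higher and 0 lower from FPKM with a pseudocount of 1 (2 lower in the report), and 1 higher and 1 lower without the 24 genes that have exonic overlap. The pseudocount shrinks low genes, and 1.87% of all genes then pass 2-fold. Past 1.5-fold 1 was higher and 3 lower from FPKM with a pseudocount of 1 (6 and 5 in the report), and 2 were higher without overlapping genes; of all genes 9.21% and 21.2% passed under these settings. Without TMM factors, and from FPKM with a pseudocount of 0.1, 4 members were higher and 6 lower, with SQSTM1 and MAP1LC3B lost and ATG10 gained; with DESeq2 size factors 7 were higher and 4 lower, with CTSL lost and ATG16L1 gained. Without TMM factors the median of all genes was -0.12, and 10 of 67 members changed sign, none above 0.10 in size; with DESeq2 1.42.0 size factors (median of all genes 0.03) 4 did, none above 0.04. Without TMM factors, with FPKM and a pseudocount of 1, and with one of 0.1, the medians were -0.0954, -0.0885 and -0.0946 for V1, -0.1668, -0.1631 and -0.1664 for the LAMP proteins, and 0.4606, 0.4422 and 0.4587 for the cargo receptors. The ATG8 conjugation median was 0.324 without overlapping genes, and the ATG8 family median 0.4264 with no count filter. For these medians the cause was not tested, apart from the shift of all genes above. Depth limits ATP6V0D2, ATP6V0A4, ATP6V1C2, CTSF, TFEB and ATG16L2 most.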
